A study of Mus musculus with 37 samples.

Results

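The genes described are Il10, which encodes the cytokine IL-10, and Il10ra and Il10rb, which encode the 2 chains of its receptor. They were taken by name from the deposited transcript table and are 3 of its 6509 genes. The study asked how IL-10 acts on different myeloid cells of the mouse during an inflammatory stimulus. RNA-seq libraries were made from 5 cell types of C57Bl6cJ mice: peritoneal macrophages elicited with thioglycollate and selected by overnight adherence, neutrophils purified from bone marrow, dendritic cells enriched from spleen (sDCs), and cultured mast cells and eosinophils derived from bone marrow. Each of the 18 groups had 2 libraries, from different pools of mice.

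Macrophages, neutrophils, sDCs and mast cells were left untreated or were given IL-10 at 100 ng/ml for 4 h, LPS at 100 ng/ml for 4 h, or IL-10 for 4 h and then LPS for a further 4 h. LPS is lipopolysaccharide, an endotoxin of Gram-negative bacteria that acts through Toll-like receptor 4. For eosinophils there were untreated and LPS groups and none with IL-10. All cultures received fresh medium at the start. The neutrophils of every group, controls included, came from pooled mice and were kept overnight with the growth factor GM-CSF before treatment. In the study's scheme LPS was added 4 h after the change of medium, also where no IL-10 came first, and the groups with LPS were harvested later than those without it, so LPS and the longer culture cannot be told apart in those comparisons. All sDC libraries, and 1 of the 2 libraries in each mast cell group, were made with another library kit than the rest, and 1 of the 2 libraries of the untreated and of the IL-10 macrophages had been sequenced in an earlier study.

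IL-10 is the main brake on inflammatory gene expression in myeloid cells. It binds IL10RA, the chain that gives the receptor its specificity, which carries the kinase JAK1 and the docking sites for the transcription factor STAT3. IL10RB, which carries the kinase TYK2, is shared with the receptors for IL-22 and the type III interferons, and both chains are needed for a signal. Macrophages that sense LPS make IL-10 themselves, which then acts back on the cells that release it.

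Each transcript has a single value for each group in the table, averaged by the authors over 2 libraries, in normalized tag counts. A mean alone carries no spread, so no difference between groups could be tested and every comparison is a description of means. A gene value is the sum of its transcripts. Log2 fold changes are differences of log2(mean + 1), a scale on which changes of low genes come out too small. Genes with at least 1 group mean of 10 or more in a cell type were kept for that cell type, and a kept gene was called raised or lowered where its log2 fold change was at least 2-fold. All 3 genes were kept in the 4 cell types given IL-10, while Il10 was not kept in eosinophils. In bulk RNA, fewer cells of a type and less RNA per cell cannot be told apart.

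Markers of the labelled cells stood out in 4 of the 5 cell types. Summed macrophage, neutrophil, mast cell and eosinophil markers (2 to 7 genes each) were highest in their own cell type. Of the dendritic cell markers 3 were in the table, and their sum was higher in macrophages (5485.5 to 13926) than in sDCs (910.5 to 4508.5), through Itgax. In each sDC group it was also below the summed neutrophil markers (2485.5 to 10077.5) and mast cell markers (3925 to 8800, all from Kit), so these markers do not set the sDCs apart as their label would have it. Markers of other cells were present in some preparations too. B cell markers summed to between 3122 and 4744 in neutrophils and between 1504 and 1778.5 in sDCs, against at most 8.5 in mast cells. Cd4, the only 1 of 9 listed T cell markers with values, lay between 876 and 2306.5 in sDCs and at 58.5 or lower elsewhere. Whether it came from T cells or from the sDCs themselves was not tested. Eosinophil markers reached 19648 to 23628 in neutrophils.

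Il10 (ENSMUSG00000016529.5) lies on the plus strand of chromosome 1 (mm9, chr1:132916422-132921551) and was represented by 1 protein-coding transcript of 1310 bases in 5 exons. Il10ra (ENSMUSG00000032089.8) lies on the minus strand of chromosome 9 (chr9:45061922-45077232) with 4 transcripts in the table, of which 2 are in the annotation. Il10rb (ENSMUSG00000022969.5) lies on the plus strand of chromosome 16 (chr16:91406409-91426074) with 5 transcripts, all annotated.

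One transcript carried most of each receptor gene's value. For Il10ra this was ENSMUST00000034594, of 3496 bases in 7 exons, with 92.4% of the value summed over all groups and between 87.3% and 98.7% in single groups. A second annotated Il10ra transcript, ENSMUST00000169244, has 6 exons and leaves out exon 2. That exon is 121 bases long, is coding throughout and lies at chr9:45075183-45075303 on the minus strand of mm9. It is printed because its presence is what tells the main form from the shorter one, with all of its bases in lower case since none is singled out.

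Il10ra exon 2: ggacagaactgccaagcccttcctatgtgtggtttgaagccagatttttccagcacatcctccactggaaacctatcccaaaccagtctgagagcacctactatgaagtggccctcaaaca

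The annotated form without exon 2 held 3.29% of the Il10ra value over all groups. Its share was highest in mast cells, between 3.58% with LPS and 5.55% with IL-10, and lowest in macrophages with LPS, at 0.414%. A further Il10ra transcript, ENSMUST00000176808, held 3.30%, and whether it too leaves out exon 2 is not known here. It had the same value as ENSMUST00000169244 in 14 of 18 groups and never differed from it by more than 2. The authors' counting may thus have split reads between near-identical forms, and their separate values are uncertain. The fourth, ENSMUST00000176222, held 10.4% of Il10ra in untreated macrophages (192.5) and was listed at 0 in macrophages with IL-10 and LPS.

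For Il10rb the main transcript was ENSMUST00000023691, of 1845 bases, with 89.5% of the value. Its share was between 80.2% and 96.2% in single groups and was lowest in neutrophils with LPS or with IL-10 and LPS. There 2 longer forms, ENSMUST00000156133 and ENSMUST00000169076, had values of 482 and 483 with LPS, against 74.5 each in untreated neutrophils. These 2 have the same 7 exons in the annotation, 1 labelled protein coding and 1 nonsense-mediated decay. Their values were equal in 15 of 18 groups, so the split between them is uncertain.

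Il10 was low or listed at 0 in untreated cells. It was high in the groups with LPS in macrophages, neutrophils and sDCs, and in the groups with IL-10 in mast cells. In macrophages its mean was 10 untreated, 13 with IL-10, 495 with LPS and 343.5 with IL-10 and LPS. In neutrophils it was 1.5, 0.5, 1601 and 221 in the same order of treatments. In both cell types only the groups with LPS were high. The sDCs followed the same order at a lower height, with 26, 20, 220 and 176. Mast cells did not, with 1.5 untreated, 159.5 with IL-10, 5 with LPS and 208.5 with IL-10 and LPS. There the groups given IL-10 were high whether or not LPS followed. In eosinophils the value of Il10 was 3.5 with LPS, and the untreated group was listed at 0.

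**Figure D1:**
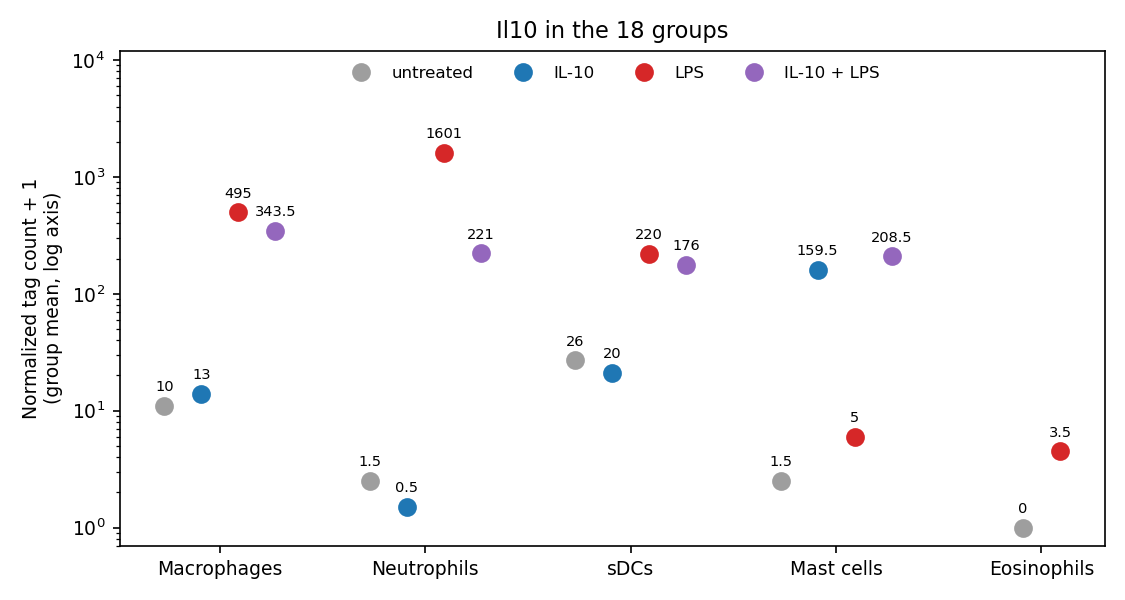
Il10 in each of the 18 groups, as the authors' mean of normalized tag counts plus 1 on a log axis, with the mean printed above each point and colours for treatments (no error bars, since the table holds means only). LPS groups stand highest in macrophages, neutrophils and sDCs, at 495, 1601 and 220, while in mast cells the groups with IL-10 stand highest, at 159.5 and 208.5.

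With LPS against untreated, Il10 was called raised in macrophages, neutrophils, sDCs and mast cells. In mast cells neither mean of this comparison reached the minimum of 10, and the gene was kept through the groups with IL-10. The neutrophil change was the largest, a log2 fold change of 9.32 from a mean of 1.5, and ranked 4 of 5949 kept genes. In macrophages it was 5.49, a 49.5-fold ratio of the means, at rank 34 of 6064. In sDCs it was 3.03, an 8.46-fold ratio, at rank 110 of 6050. In mast cells it was 1.26, from 1.5 to 5, a call between means that are both near 0. The share of all kept genes called raised by LPS was 4.76% in mast cells, 9.04% in sDCs, 8.71% in neutrophils and 12.7% in macrophages.

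IL-10 given before LPS was accompanied by different Il10 levels in different cells. In neutrophils Il10 was 7.24-fold lower with IL-10 and LPS than with LPS alone (log2 fold change -2.85), which ranked 17 from the lowest of 5949 kept genes. The share of kept neutrophil genes called lowered was 3.87%. In macrophages the log2 fold change was -0.53 and in sDCs -0.32, both under 2-fold. In mast cells it was 5.13, a 41.7-fold ratio of the means and the third highest of 5734 kept genes, where 2.88% were called raised.

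IL-10 alone left Il10 under 2-fold in macrophages (log2 fold change 0.35), neutrophils (-0.74, between means of 1.5 and 0.5) and sDCs (-0.36). In mast cells the log2 fold change was 6.0, the highest of all 5734 kept genes, where 2.25% were called raised. The size of this fold rests on the untreated mean of 1.5. The height of the treated mean does not, and 159.5 with IL-10 was close to the 176 of sDCs with IL-10 and LPS. Across the 4 groups with IL-10 and LPS, Il10 had a narrow range of 176 to 343.5.

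Some markers of other cells moved along with these levels. In neutrophils the summed macrophage markers were 7588.5 untreated, 8398 with IL-10, 18173.5 with LPS and 10172.5 with IL-10 and LPS, the same order as Il10 in the 2 groups with LPS. Among these 5 genes Emr1 was 4346, 4305.5, 14667.5 and 5157.5, Marco 0, 0, 241 and 14.5, and Timd4 was at or near 0 in each group. Emr1 was also 14338.5 in untreated eosinophils and 22514.5 with LPS, against 13108 to 21201 in macrophages, so it is not particular to macrophages here. Cd68 and Mrc1 were not highest with LPS. The summed B cell markers were lower with LPS (3487) than without (4707.5), and the summed neutrophil markers were 309239 untreated and 68132.5 with LPS. The part of these changes in the Il10 level was not tested. In mast cells no summed list of markers of other cells was higher in both groups with IL-10 than in both without it. Of the 2 eosinophil markers, Epx alone had that order, at 25 untreated, 66 with IL-10, 8 with LPS and 99 with both. Ccr3 was 963, 474, 738.5 and 282, and a part of other cells in the Il10 level was not tested. The summed macrophage markers of the mast cells were between 1772.5 and 2268 and their B cell markers between 3.5 and 8.5.

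The genes whose pattern over the 18 means was most like that of Il10 were Adrm1 (Pearson r = 0.89 on the log2 scale), Eif3g (0.88), Junb (0.83), Asb6 (0.82) and Dcaf13 (0.81). Junb, a subunit of the transcription factor AP-1, was 3166.5 in untreated mast cells and 7007 with IL-10, and 2278 in untreated neutrophils and 10901.5 with LPS. Adrm1, a proteasome subunit, moved far less, between 1501.5 and 2377.5 over all groups. These correlations are over group means that share their normalization and, within a cell type, their culture. They are a description of 18 points.

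Il10ra was detected in every group. Untreated mast cells had the highest level, 10905.5, which was 2.76-fold that of sDCs (3958). Neutrophils followed at 2380, macrophages at 1843.5 and eosinophils at 950.5. Each of these differed from the next by less than 2-fold, so within this order only mast cells stood apart.

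Il10rb had another order. Untreated macrophages were highest at 6351.5, 2.53-fold above sDCs at 2513.5. Neutrophils (2034.5), eosinophils (1223.5) and mast cells (964.5) followed, each under 2-fold from the next. Mast cells were thus the highest of the 5 in Il10ra and the lowest in Il10rb. Over the 18 means the log2 levels of the chains had r = -0.45 (Spearman's rho -0.36), a description in which groups of 1 cell type lie together.

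**Figure D2:**
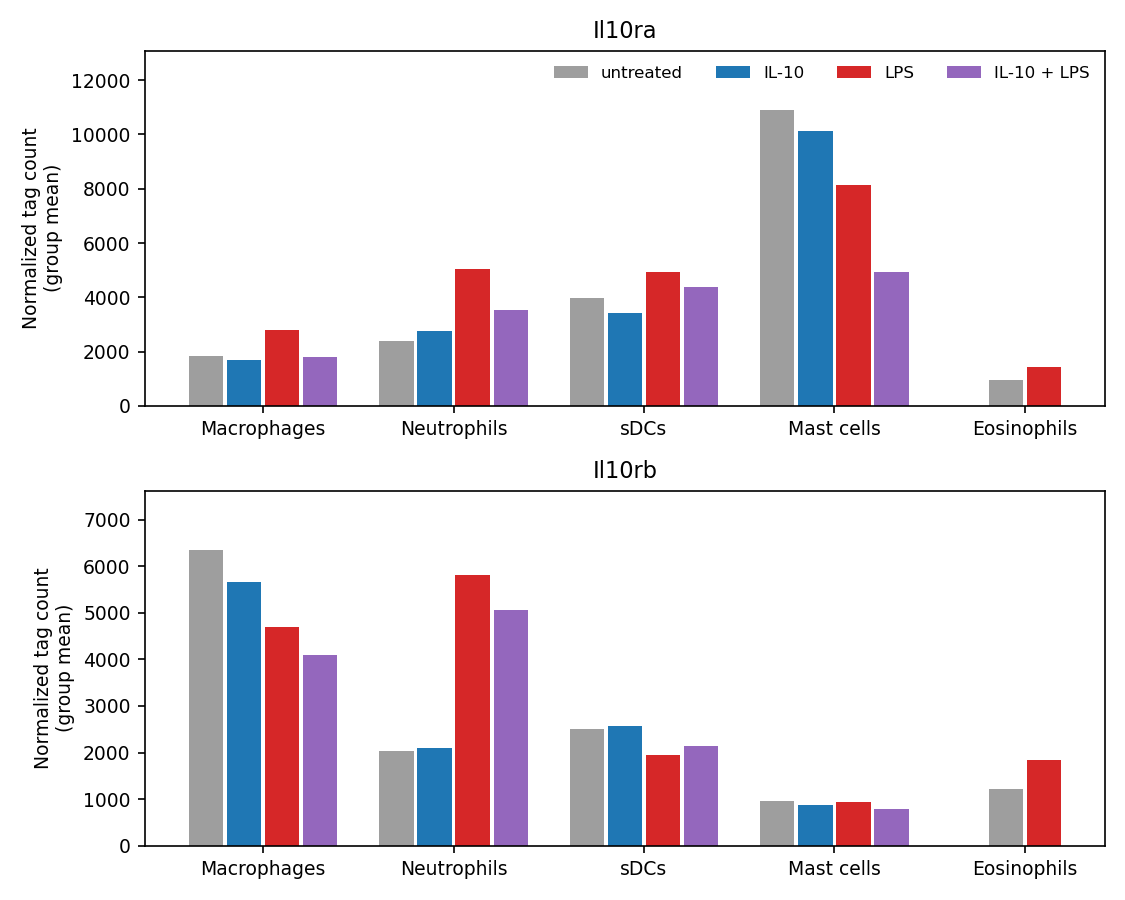
Il10ra (top) and Il10rb (bottom) in the 18 groups as the authors' means of normalized tag counts, with bars from 0 and colours for treatments. Mast cells are highest in Il10ra in all 4 treatments, from 4918 to 10905.5, and lowest in Il10rb, from 788.5 to 964.5. In Il10ra they are at least 2-fold above the next cell type only untreated and with IL-10. In Il10rb they are at least 2-fold below the next only with IL-10 and with IL-10 and LPS.

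Treatment moved the receptor genes far less than Il10. LPS raised both chains past 2-fold in neutrophils only. There Il10ra was 2380 untreated, 2770.5 with IL-10, 5042 with LPS and 3541.5 with IL-10 and LPS, and the log2 fold change with LPS was 1.08. Neutrophil Il10rb was 2034.5, 2103.5, 5807.5 and 5069.5, with a log2 fold change of 1.51. As background, 8.71% of kept neutrophil genes were called raised by LPS. The macrophage and neutrophil markers given above moved in the same comparison, and their part was not tested. Whether LPS acted differently on these chains between cell types was not tested either.

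In macrophages Il10ra was 1843.5, 1682.5, 2777.5 and 1788 over the same 4 treatments. The LPS group was the highest, by a log2 fold change of 0.59, and with IL-10 and LPS the level was back near the untreated one (-0.64 against LPS). Macrophage Il10rb went the other way with LPS, at 6351.5, 5662, 4700 and 4098 (-0.43 with LPS). The sDCs had the steadiest Il10ra of the 4, at 3958, 3432, 4923.5 and 4386, and their Il10rb was 2513.5, 2563, 1940 and 2139.

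Mast cell Il10ra was 10905.5, 10113.5, 8125 and 4918. The group with IL-10 and LPS was the lowest, 1.65-fold below LPS alone (log2 fold change -0.72), which is under the 2-fold call. Mast cell Il10rb was level, at 964.5, 877.5, 938 and 788.5. In eosinophils both chains were 1.5-fold higher with LPS, from 950.5 to 1425.5 for Il10ra and from 1223.5 to 1834.5 for Il10rb. Few eosinophil genes moved, with 2.16% called raised, and the chains ranked 206 and 207 of 5559 kept genes.

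IL-10 itself shifted neither chain past 2-fold in any cell type. With IL-10 against untreated the log2 fold changes of Il10ra were 0.22 in neutrophils, -0.11 in mast cells, -0.13 in macrophages and -0.21 in sDCs. Those of Il10rb lay between -0.17 and 0.05. Between IL-10 with LPS and LPS alone, Il10ra was lower in all 4 cell types, by log2 fold changes of -0.64, -0.51, -0.17 and -0.72 in the order macrophages, neutrophils, sDCs and mast cells. These stand beside medians over all kept genes between -0.03 and 0.04.

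To compare the chains with each other, each annotated transcript's value was divided by its length in kilobases. The annotated transcripts hold 95.6% of the Il10ra value and 100% of that of Il10rb. Untreated macrophages had 466 per kb of Il10ra and 3434 per kb of Il10rb, a 7.36-fold excess of the shared chain. Mast cells were the reverse, with 2961 per kb of Il10ra and 525 per kb of Il10rb, a 5.64-fold excess of the ligand-specific chain. Neutrophils (672 and 1089 per kb) and sDCs (1106 and 1373 per kb) had both chains within 2-fold of each other. Eosinophils had 266 and 659 per kb, the lowest Il10ra of the 5 cell types but not the lowest Il10rb.

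**Figure D3:**
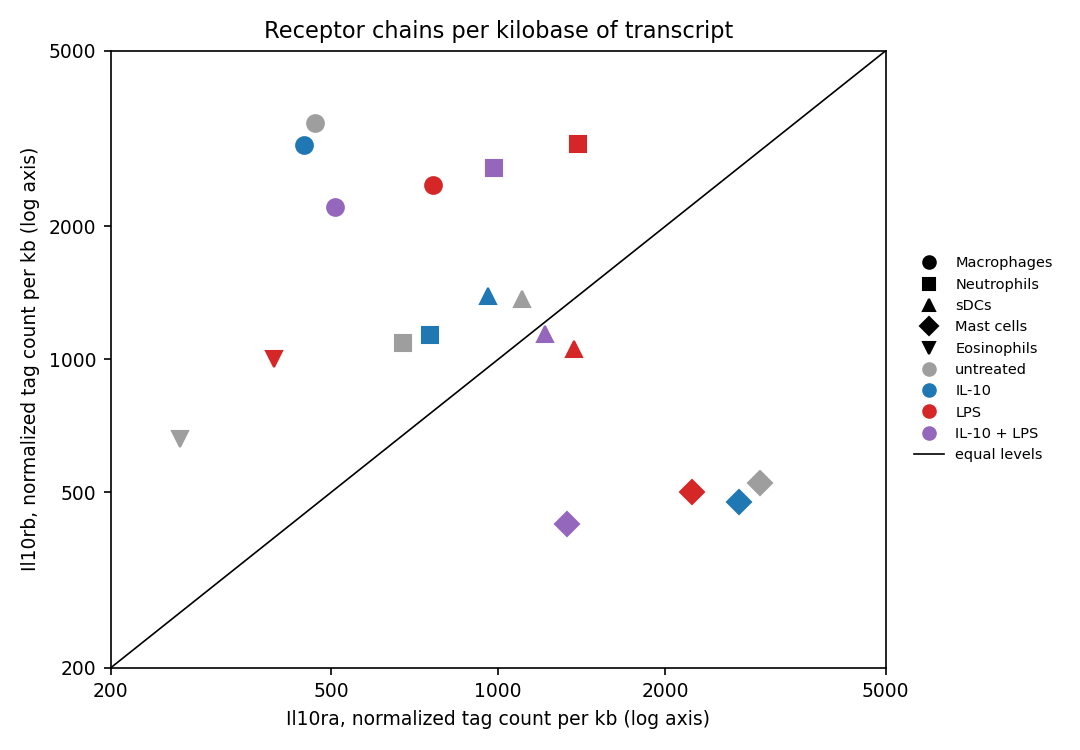
Il10ra (x axis) against Il10rb (y axis), both as normalized tag counts per kb of annotated transcript on log axes, with marker shapes for the 5 cell types, colours for treatments and a line of equal levels. Macrophages, neutrophils and eosinophils lie above the line, mast cells below it and sDCs near it.

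Macrophages kept the excess of Il10rb in each treatment, from 3.24-fold with LPS to 7.36-fold untreated. Mast cells kept the excess of Il10ra, from 3.15-fold with IL-10 and LPS to 5.72-fold with IL-10. In sDCs the higher chain changed from Il10rb (1.24-fold untreated) to Il10ra (1.30-fold with LPS), both differences under 2-fold. If the chain with the lower level per kb is taken as the measure, the untreated order was sDCs (1106), neutrophils (672), mast cells (525) and macrophages (466).

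These receptor levels were set beside the size of the IL-10 response in the 4 cell types that received IL-10. With IL-10 against untreated, 142 genes were called raised in macrophages (2.34% of kept genes), 129 in mast cells (2.25%), 97 in sDCs (1.60%) and 75 in neutrophils (1.26%). The genes called lowered were 160 in mast cells (2.79%), 130 in macrophages (2.14%), 54 in neutrophils (0.908%) and 50 in sDCs (0.826%). Mast cells and macrophages, at opposite ends of both receptor orders, thus had the most changed genes. The median size of a change over all kept genes was 0.18 in mast cells, 0.14 in macrophages, 0.13 in sDCs and 0.10 in neutrophils on the log2 scale.

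The suppression of the LPS response had another order. Of the genes raised by LPS, IL-10 given first lowered 85 of 273 in mast cells (31.1%), 154 of 518 in neutrophils (29.7%), 139 of 773 in macrophages (17.98%) and 66 of 547 in sDCs (12.1%). Among all kept genes the shares called lowered in this comparison were 4.66%, 3.87%, 4.58% and 2.08% in the same order. The LPS mean both picks these genes and serves as their reference, so a share above that background is in part built in. The sDCs had the second highest level of both chains and the lowest share suppressed.

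**Figure D4:**
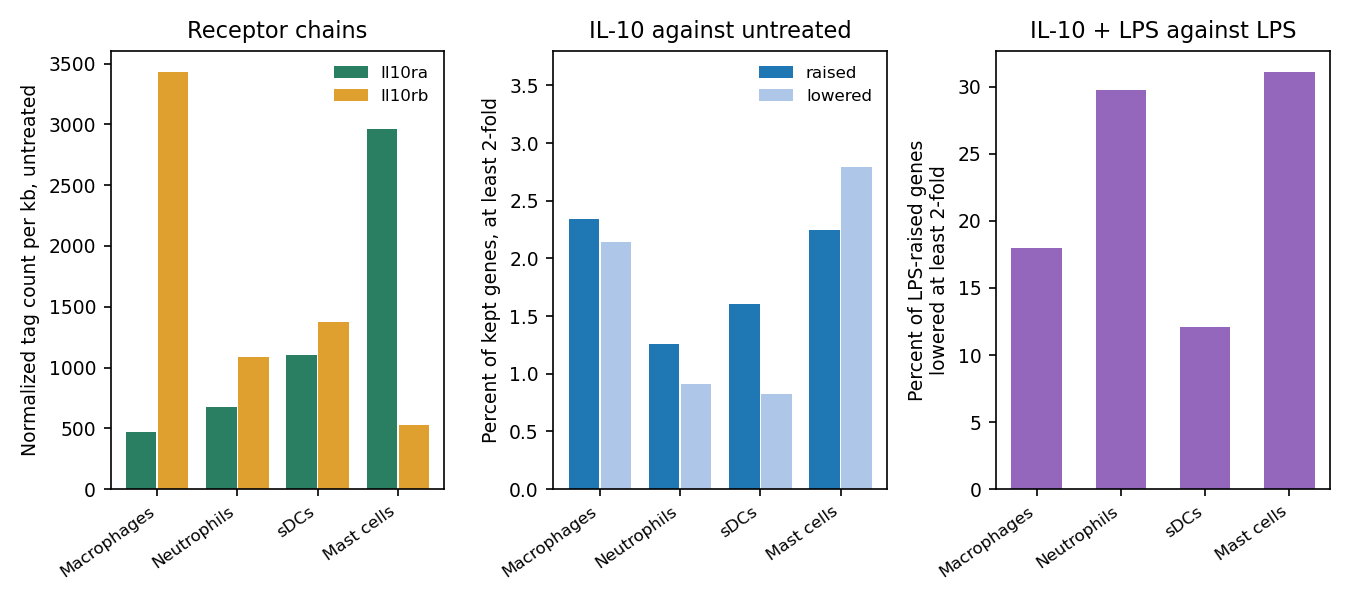
Untreated Il10ra and Il10rb per kb (left), the percent of kept genes at least 2-fold higher or lower with IL-10 against untreated (middle), and the percent of LPS-raised genes at least 2-fold lower with IL-10 and LPS than with LPS (right) in the 4 cell types given IL-10. The sDCs have intermediate levels of both chains and the smallest share on the right, 12.1%.

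Neither chain, nor the lower of them, ranked the 4 cell types in the order of any of these 3 responses. Over 18 orders, from 3 measures of response under 6 settings, the order by Il10ra or by the lower chain matched none, and the order by Il10rb matched 1, the number of raised transcripts when transcripts were counted singly. The 6 settings are repeats of the same 3 responses on the same means. Some neighbours in these orders lay close, as with 142 raised genes in macrophages and 129 in mast cells. Their lower chains, at 466 and 525 per kb, were close too. A match or mismatch of such orders therefore cannot show whether receptor level and response are related. The cell type with the highest response was that with the highest Il10ra (mast cells) in 12 of the 18, the highest Il10rb (macrophages) in 4 and the highest lower chain (sDCs) in 0. Values for 4 cell types are too few for a correlation, and the cell types differ in culture, in library kit and in markers of other cells present, which cannot be told apart from receptor level. Eosinophils had no IL-10 group in the RNA-seq, so their receptor levels have no RNA-seq response beside them. Their untreated Il10ra (950.5) was the lowest but under 2-fold from macrophages (1843.5), and their Il10rb (1223.5) was above that of mast cells (964.5). In the paper's other assays, IL-10 gave eosinophils only a very weak band of phosphorylated STAT3. Inflammatory cytokines were not seen to be suppressed in them there. The paper names low expression of both receptor genes as a possible reason, which was not tested here.

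Of the kinases carried by the receptor chains, Tyk2, which sits on IL10RB, was in the table, and Jak1 was not analysed here. Tyk2 was highest in sDCs, 8812 untreated, against 1382.5 to 2561 in the other 4 untreated cell types. It was called raised by LPS in neutrophils (1591 to 3208.5, log2 fold change 1.01) and was -0.95 in mast cells with IL-10 and LPS against LPS, under the call.

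The list of IL-10 and STAT3 targets had 7 of 19 genes in the table. With IL-10 against untreated, 3 of 7 kept genes were called raised in macrophages (median log2 fold change 0.98), 3 of 7 in mast cells (0.53), 1 of 7 in sDCs (0.21) and 0 of 6 in neutrophils (0.66), with none called lowered. Over all kept genes the shares raised were 2.34%, 2.25%, 1.60% and 1.26% in the same order, and the medians lay between -0.04 and 0.01. Arid5a, an RNA-binding protein, was raised from 361.5 to 1130 in macrophages and from 284.5 to 1230.5 in mast cells. Sbno2, a co-repressor that IL-10 is known to induce, went from 3403 to 8959 in mast cells (1.40) and from 2506 to 4952 in macrophages, just under the call at 0.98. In sDCs it was already at 7590 untreated and was 8786 with IL-10.

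The others called raised by IL-10 alone were Cd163, a scavenger receptor, in macrophages (24.5 to 88.5), Hmox1, a haem-degrading enzyme, in mast cells (1218 to 2923.5), and Arg1, arginase 1, in macrophages (3358.5 to 7570) and in sDCs (15 to 40.5). With IL-10 and LPS against LPS, 4 of 6 kept targets were called raised in neutrophils and 1 lowered. The shares of all kept genes called raised in this comparison were 2.61% in sDCs, 2.88% in mast cells, 3.06% in neutrophils and 3.12% in macrophages. In neutrophils Mrc1, the mannose receptor, was 124.5 with LPS and 613 with both (log2 fold change 2.29), Sbno2 was 3844.5 and 9044 (1.23), Arid5a was 1261 and 3067 (1.28), and Arg1 was 2 and 65. Neutrophil Arg1 was kept only through its mean of 65 with both, so the filter favoured this call. Neutrophil Hmox1 was the one lowered, from 77414 to 35953.5. Macrophages had 2 of 7 raised (Arg1 and Mrc1), mast cells 2 of 7 (Arid5a and Sbno2) and sDCs 0 of 7.

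**Figure D5:**
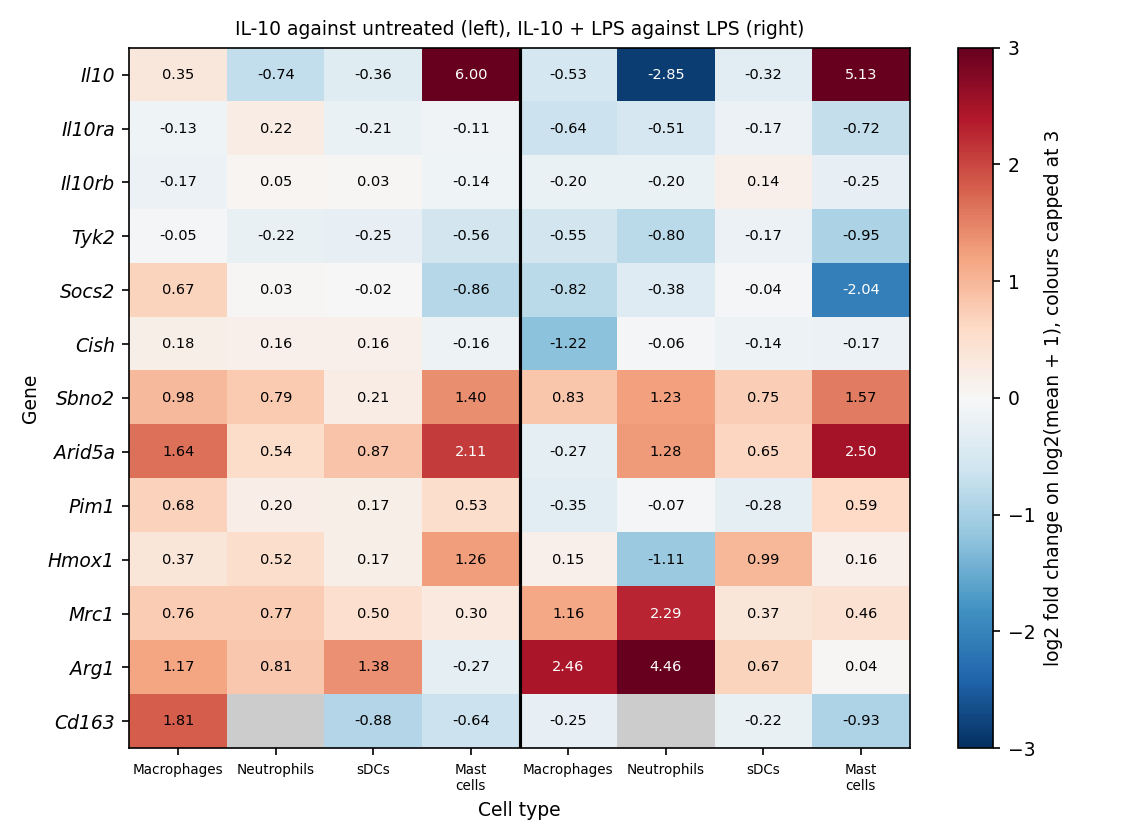
Log2 fold changes on log2(mean + 1) for the receptor ligand, both chains, pathway genes and targets (rows) in 4 cell types (columns), for IL-10 against untreated on the left and IL-10 and LPS against LPS on the right, with grey cells for a gene not kept and colours capped at 3. Il10 is at 6.0 and 5.13 in mast cells and at -2.85 in neutrophils on the right, while both chains stay between -0.72 and 0.22.

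Feedback inhibitors of cytokine receptors had 4 of 7 genes in the table, namely Socs2, Cish, Ptpn6 and Ptpn11. IL-10 alone called 0 of these 4 in each cell type. Among all kept genes IL-10 alone raised 1.26% to 2.34% and lowered 0.826% to 2.79% by cell type, so 0 of 4 is near the background. Socs3 was not among the genes with values, so these counts say nothing about it. The paper lists Socs3 as up-regulated by IL-10 in every cell type that responded to IL-10. Cish was raised by LPS in macrophages (43.5 to 644.5, log2 fold change 3.86) and in sDCs (277 to 668.5, 1.27), and was -1.22 in macrophages with IL-10 and LPS against LPS. Socs2 in mast cells was 561.5 untreated, 308.5 with IL-10, 1112.5 with LPS and 269.5 with both, a log2 fold change of -2.04 in the last comparison. Ptpn6 and Ptpn11, phosphatases that act on JAK-STAT signalling, were not called in any comparison.

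Of 18 LPS-induced genes known to be suppressed by IL-10, 12 were in the table. With IL-10 and LPS against LPS, 8 of 12 were called lowered in macrophages (median log2 fold change -1.69), 8 of 12 in neutrophils (-1.71), 5 of 12 in sDCs (-0.65) and 3 of 10 in mast cells (-0.42). Over all kept genes the shares lowered were 4.58%, 3.87%, 2.08% and 4.66% in the same order, with medians between -0.03 and 0.04. Mast cells, with the highest share of LPS-raised genes lowered, thus had the smallest median over this list. Several of these genes were low in mast cells with LPS, as Il12a (34), Cd80 (22) and Cd86 (14), while Tnf (5661.5) and Ptgs2 (802.5) were not. Cd86 was not called raised by LPS there, and changes of low genes come out too small on this scale. Il12b, a subunit of IL-12 and IL-23, went from 13131 to 88.5 in neutrophils, from 4281.5 to 266 in macrophages and from 5828 to 673.5 in sDCs. Il23a went from 1742 to 108.5 in neutrophils and from 188 to 9.5 in macrophages, and Csf2, encoding GM-CSF, from 97 to 6 in mast cells. Some genes called lowered were kept only through the LPS group, as with Csf2 in mast cells and in neutrophils (16 with LPS). Nos2, inducible nitric oxide synthase, was higher with IL-10 and LPS than with LPS in macrophages (6709 to 35477.5), neutrophils (349.5 to 2797) and sDCs (187.5 to 430), and Csf3 in sDCs (12 to 56.5). Both were named after their values were seen.

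The other cytokine of the IL-10 family in the table was Il19. It was listed at 0 in macrophages without LPS, at 86.5 with LPS and at 211 with IL-10 and LPS, so the last comparison (log2 fold change 1.28) went the other way from Il10 in the same cells. It was also higher with both than with LPS in neutrophils (2.5 to 20) and sDCs (1 to 14) and was listed at 0 in mast cells. Il20rb, a receptor chain for IL-19, was raised by LPS in macrophages (42.5 to 298) and in sDCs (49.5 to 107). Il22ra2, a soluble receptor for IL-22, was at 29.5 or lower in every group. The interferon receptor genes Ifnar1, Ifnar2, Ifngr1 and Ifngr2, relatives of the IL-10 receptor chains, had 0 of 4 called in either comparison with IL-10 in each cell type. Among all kept genes those comparisons called 1.26% to 3.12% raised and 0.826% to 4.66% lowered, so 0 of 4 is near the background. With LPS, Ifngr1 was called lowered in macrophages (4006.5 to 1685) and sDCs (4093 to 944.5), Ifnar1 in sDCs (4538 to 2264.5), and Ifngr2 was raised in mast cells (234 to 516.5). Among all kept genes LPS lowered 14.8% in macrophages, 11.5% in sDCs, 7.88% in neutrophils and 5.46% in mast cells.

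Known regulators of Il10 transcription had 8 of 17 genes in the table. With LPS, 2 of 8 were called raised in macrophages, neutrophils and sDCs, while the count was 1 of 8 in eosinophils and 3 of 8 in mast cells. The shares of all kept genes raised by LPS were 12.7%, 8.71%, 9.04%, 2.16% and 4.76% in the same order of cell types, so 2 of 8 in macrophages is near the background. Map3k8, the kinase that couples Toll-like receptors to ERK, was among them in each cell type, from 493.5 to 4025 in neutrophils and from 346.5 to 1199 in macrophages. In mast cells Map3k8 was 55 untreated, 252 with IL-10, 203.5 with LPS and 274 with both. It was the only one of the 8 called with IL-10 alone in any cell type, and unlike Il10 it was also high in mast cells with LPS alone. Nfkb1 was called raised by LPS in the 4 cell types other than eosinophils, and Irf5 in mast cells (541.5 to 1619). Fos was lowered by LPS in macrophages, sDCs and mast cells, and Mapk3 in neutrophils.

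The genes most like Il10ra over the 18 means were Bicd1 and Mtap7 (Pearson r = 0.91 each on the log2 scale), 6230427J02Rik (0.91), Zfp521 (0.89) and Eme2 (0.89). Each had its highest level in mast cells, as for Zfp521 with 814 in untreated mast cells and at most 11.5 in macrophages. Those most like Il10rb were 9130230L23Rik (0.93), Vps4b (0.93), Cstb (0.92), Slc11a1 (0.92) and Pik3ap1 (0.92). Pik3ap1, a signalling adaptor, was 3237.5 in untreated neutrophils and 12144 with LPS, with 778 in untreated mast cells. Slc11a1, a metal transporter of phagosomes, was between 152 and 195 in mast cells and between 19618.5 and 21553 in macrophages.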

How the data were processed

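Libraries were mapped and counted per transcript by the authors with Bowtie 0.12.9 and RSEM 1.2.1, per the submitters' processing notes, and normalized by them for GC content with EDASeq. The deposited values have the unit score: normalized tag counts averaged by the authors over the 2 libraries of each group. The highest value was 185338 in each of the 18 columns, and values are multiples of 0.5. No transcript had a maximum under 13, by a filter not given in the sources consulted. Depth per library cannot be read from such means, so no counting interval or limit for a value of 0 is given.

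Of 17015 complete lines (1 more was incomplete), 22 (0.129%) have no gene name and were dropped. The remainder were 16993 transcripts of 6509 genes. Of 37 samples, 36 lie behind the columns and 1 has no column and was not analysed here. Groups followed the sample labels. Computation used pandas 2.3.3, numpy 2.4.6 and matplotlib 3.10.9 in Python 3.11.15 (minimum group mean 10, pseudocount 1, call at 2-fold), and the calling step was tested on simulated data. The planned description of means was used throughout, with no test. Lengths, exons and the printed exon came from GENCODE vM1 on NCBIM37 (mm9), which holds 16791 of the transcripts. None of the 3 genes had an entry in the RefSeq promoter table.

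Genes named were the members and their transcripts, the 5 genes most like each, the receptors, kinases, feedback inhibitors and targets of gene lists (1 listed gene is not reported here), and the 3 genes of each other list with the largest change. The members and lists were chosen with earlier results of these data known. Alternatives were other pseudocounts, minimums, thresholds, scalings, protein-coding transcripts alone, single transcripts and rank correlation.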

Additional observations from a re-analysis of the deposited data

How the results depend on the processing

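The means carry no replicate values, so no spread, test or interval could be had, and leaving out a replicate was not possible. No paired analysis was possible because the columns hold means over both libraries and carry no replicate numbers. The orders of the cell types by untreated Il10ra and by Il10rb were the same per kb, over protein-coding transcripts alone and after scaling by upper quartiles (factors 0.975 to 1.05). With factors so close to 1, that scaling could change little. No fold change of either chain changed its call under those settings or another pseudocount, and no value turned its direction.

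Il10 fold changes from means near 0 moved with the pseudocount. With a pseudocount of 10 the log2 fold change was 4.66 in macrophages and 7.13 in neutrophils with LPS, -0.13 in neutrophils with IL-10, and in mast cells 3.86 with IL-10 and LPS against LPS, 3.88 with IL-10, and 0.38 with LPS, where the call was lost. With 0.1 it was 9.97 in neutrophils with LPS, 6.64 in mast cells with IL-10 and -1.42 in neutrophils with IL-10, which then passed 2-fold between means of 1.5 and 0.5.

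The number of genes raised by IL-10 depended on each setting. With a minimum of 50 it was 69 in macrophages and 57 in sDCs. With no minimum it was 217, 131, 150 and 219 for macrophages, neutrophils, sDCs and mast cells, with a call at 1.5-fold 309, 186, 264 and 262, and over single transcripts 1495, 999, 1095 and 946. With a pseudocount of 10 it was 74 in macrophages and 49 in sDCs. The number lowered was 39 in macrophages, 8 in neutrophils and 24 in sDCs with a minimum of 50, and 104 in neutrophils and 99 in sDCs with none. It was 294, 174, 201 and 470 in macrophages, neutrophils, sDCs and mast cells at 1.5-fold, 1413, 807, 961 and 988 over single transcripts, and 46, 6, 15 and 102 with a pseudocount of 10. The minimum and the fold set these counts by construction, and for the other settings the cause was not tested.

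Of the LPS-raised genes, 28.4% in macrophages and 22.1% in sDCs were lowered at 1.5-fold, and 29.0% and 23.4% over single transcripts. The sDCs had the lowest share and macrophages the next in all 6 settings, while mast cells and neutrophils exchanged the top places. At 1.5-fold, 6 of the IL-10 and STAT3 targets were raised by IL-10 in macrophages, 3 in neutrophils and 2 in sDCs, and with a minimum of 50 none (0) in sDCs. Ranking by Spearman's correlation shared 2 of the 5 most alike genes for Il10, 2 for Il10ra and 2 for Il10rb.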
